A study of Mus musculus with 3 samples.

Results

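The comparison described here set the 8 cultured retinal explants of the series against its 5 retinas taken at postnatal day (P) 0, within each cell type that both libraries share. All 5607 explant cells and all 5706 P0 cells were used, which is 11313 of the 14611 cells and 13 of the 18 samples of the series. Members were chosen by library and by the cell type that the authors recorded for each cell. These types were progenitors, neurogenic progenitors, photoreceptors, amacrine cells and retinal ganglion cells (RGCs). The authors named each cluster of cells from its marker genes, so measured values entered the choice through the cell type. Whether the borders of a type fell alike in both libraries was not tested. The explants were wild-type CD1 retinas dissected at embryonic day (E) 14 and grown for 6 days, and the labels give their age as postnatal day 0 as well. They were flattened on Nuclepore membranes over DMEM F12 medium with fetal bovine serum, with the Sstr2 agonist L-054,264 at 0, 5, 50 or 500 nM and 2 explants at each concentration. The P0 retinas came from littermates of an Sstr2 allelic series, an IMPC em1 deletion allele on C57BL/6 outbred to CD1. They were 1 Sstr2 +/+ retina, 2 Sstr2 +/- retinas and 2 Sstr2 -/- retinas, here called the wild-type, heterozygous and knockout retinas. An explant is cut off from the optic nerve and from the blood. Doses and genotypes were pooled, as the question asked was what differs between retina grown in the dish and retina grown in the mouse.

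Each group was 1 library of the 10x 3' v3.0 chemistry, in which lipid-bound barcodes marked the sample of each cell (MULTI-seq). Culture, library, strain background, agonist and Sstr2 genotype therefore cannot be told apart in values over all samples, and a p-value measures the spread between these samples only. The labels do not say how many animals or retinas a sample held. Sstr2, the gene targeted in the allelic series, was read at 121 CPM (counts scaled to a common library total) in the neurogenic progenitors of the wild-type retina, at 204 and 267 CPM in those of the heterozygous retinas and at 319.7 and 403 CPM in those of the knockout retinas. Its counts were thus not lower in the knockout retinas. Where the deletion lies relative to the 3' tags was not examined, so these counts do not check the genotype.

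During this period the retina holds dividing progenitors, which express Sox2, Lhx2 and the Notch effectors Hes1 and Hes5. Some of these become neurogenic progenitors, which express proneural factors such as Atoh7 and Neurog2, divide a last time and give rise to neurons. RGCs are born first, amacrine cells and cones next, and rods last and in the largest number. RGC axons leave the eye through the optic nerve, which is cut when a retina is explanted, and RGCs send Sonic hedgehog and other signals back to the progenitors. Over the same days progenitors pass from an early to a late state, marked by a rise of the nuclear factor I genes Nfia, Nfib and Nfix and of genes that Müller glia keep.

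The libraries differed in depth. Explants held 318 to 1075 cells and 1281682 to 4237324 unique molecular identifiers (UMIs, counted transcripts) each, with 3925 to 4317 UMIs in the median cell. P0 retinas held 1018 to 1254 cells and 8822880 to 10793649 UMIs each, with 7258.5 to 8541 UMIs in the median cell. Every explant cell had over 1000 and under 2500 detected genes, whereas only 31.7% to 41.9% of the cells of a P0 retina did, so each comparison was made against all P0 cells and again against the 2176 P0 cells inside that range, called gene-number-matched P0 cells below. The gap was largest in RGCs, with a median of 3079.5 UMIs in 200 explant cells and of 24853 UMIs in 85 P0 cells. None of these P0 cells was inside the range. In the other types the matched P0 cells were still deeper than explant cells. Their medians were 6120.5 UMIs in progenitors, 5719 in neurogenic progenitors, 3898 in photoreceptors and 5921 in amacrine cells. The explant medians were 4548, 4526.5, 2642.5 and 4742.5 UMIs in the same order. The libraries shared 9 cell barcodes. The authors named the types from marker expression in these same counts, so marker levels are no separate check of the names. Of 48 markers looked up, most were highest in the cell type they mark in each library. The exceptions included Rax and Neurod4, which were highest in photoreceptors in both libraries, and Neurog2, which was highest in the explant cells named RGCs.

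For each cell type the authors' raw counts were added up over the cells of a sample, and edgeR was used to test the sums. A gene is said to have risen or fallen in the explants where the adjusted p was under 0.05 and the change at least 2-fold. CPM of a gene in a sample are given on edgeR's scaled library totals. Summed CPM of gene lists and CPM of pooled counts are on unscaled totals. The 5 cell types came from the same explants and retinas, so the comparisons are not independent of each other. In sums of cells, fewer transcripts per cell and fewer cells that hold a transcript cannot be told apart.

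Explants held a smaller share of progenitors than P0 retinas and larger shares of photoreceptors and amacrine cells. Progenitors made up 29.8% ± 7.22 of the cells (SD, n = 8) in explants and 49.0% ± 0.973 (n = 5) in P0 retinas, and every explant (18.1% to 41.6%) was below every retina (47.5% to 50.0%). The difference of -19.2 percentage points had p = 0.000777 in a two-sided exact permutation test, the smallest that 1287 splits allow, and 0.00389 after adjustment over the 5 cell types. Photoreceptors were 30.2% ± 6.24 in explants and 20.02% ± 2.32 in P0 retinas, and amacrine cells 24.1% ± 4.38 and 17.7% ± 1.74, each with an adjusted p = 0.0155 in the exact permutation test and with groups that overlapped. Without knockout retina 1 the adjusted p for photoreceptors was 0.0505 in the exact permutation test. Neurogenic progenitors (12.2% ± 1.26 and 11.7% ± 1.08, exact permutation p = 0.501) and RGCs (3.70% ± 2.79 and 1.53% ± 0.647, exact permutation p = 0.111) did not pass the test. The explants spread more widely than the retinas, as the plot of shares shows: the 0 nM explants held 18.1% and 25.4% progenitors and the 500 nM explants 29.8% and 41.6%, while the 5 retinas lay within 3 percentage points of each other in spite of their genotypes.

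Most of these differences depended on which P0 cells were counted. Against gene-number-matched P0 cells the difference in progenitors shrank to -4.95 points (exact permutation p = 0.221), that in photoreceptors turned to -7.99 points (exact permutation p = 0.073), and the difference in neurogenic progenitors became -3.52 points (adjusted p = 0.00583, exact permutation test). Of the 4 types found inside the range, only amacrine cells kept a larger share in explants, by 12.8 points, with 18.1% to 33.0% in the explants and 9.28% to 13.0% in the retinas and no overlap (adjusted p = 0.00389, exact permutation test). Among P0 cells, 71.4% of photoreceptors but 27.5% of progenitors and 24.7% of amacrine cells lay inside the gene-number range, so the range itself changes the mix of cell types.

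**Figure D1:**
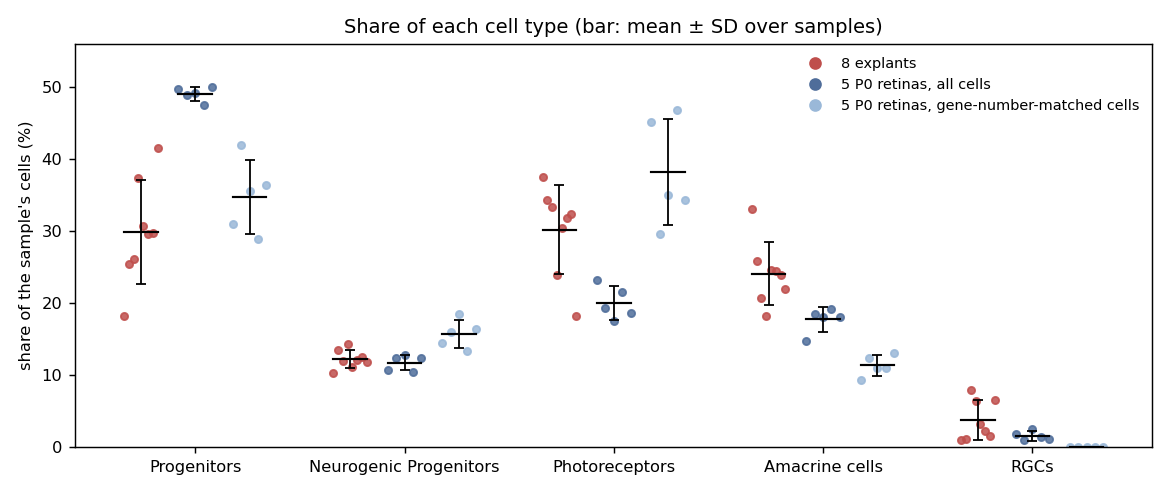
Share of each cell type in each sample, in percent of the sample's cells, for the 8 explants (red), the 5 P0 retinas with all cells (dark blue) and the same retinas with gene-number-matched cells only (light blue). Points are samples and bars the mean ± SD. Progenitors were 18.1% to 41.6% of explant cells, below all 5 retinas at 47.5% to 50.0%, and amacrine cells were the only type with a larger share in every explant than in every gene-number-matched retina among the 4 types found in both.

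In progenitors, the Notch effector Hes1, nuclear factor I gene Nfix and further genes of late progenitors and glia were lower in explants, and the photoreceptor lineage factor Otx2 was higher. Over all genes tested, 269 rose, which is 2.89% of 9314, and 554 fell, which is 5.95%. Against gene-number-matched P0 cells, 207 of 7950 (2.6%) rose and 281 (3.53%) fell.

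Hes1 (mm10 chromosome 16, 30065357 to 30067796), a repressor that holds progenitors in the cycle, was at 163, 211 and 273 CPM in the lowest, median and highest explant. In the 5 retinas it lay between 773 and 962 CPM. No explant came near a retina, and the log2 fold change of explant over P0 was -1.97 (SE 0.094, edgeR adjusted p = 9.83e-15), or -1.49 against matched cells. It was the only one of the 12 primary progenitor markers that fell, and the median of the list was 0.049 beside 0.024 for all genes. Of the genes that define the type, Sox2 (0.07), Lhx2 (0.03) and Rax (0.65) had log2 fold changes under 1 in size, and Sfrp2, a secreted Wnt modulator, was at 0.97 against all P0 cells (1.09 without knockout retina 2, 1.002 without 0 nM explant 2, 1.005 without 5 nM explant 2) and rose at 1.29 against matched cells.

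Genes of the late progenitor and glial list fell more often than they rose. Of its 20 members tested, 4 fell and 1 rose, and against matched cells 4 of 20 fell and none rose. Crym, which binds thyroid hormone, was at 103, 232 and 327 CPM in the lowest, median and highest explant and at 547 to 668 CPM in retinas, a log2 fold change of -1.48 (SE 0.16) that was -1.66 against matched cells. Nfix fell likewise, at -1.09 and at -1.11 against matched cells, and so did the tetraspanin gene Cd9, at -1.75 and -1.82. The groups did not overlap for any of these. Nfib, at -0.97, was short of 2-fold against all P0 cells (-1.01 without knockout retina 2, -1.02 without 500 nM explant 2) and fell at -1.07 against matched cells. The glial regulator Sox9 fell against all cells (-1.07), while its difference from matched cells, at -0.56, did not reach 2-fold. Of 10 early progenitor factors tested, 2 rose (Pou2f2 and Onecut2) and 1 fell (Hmga2), with a list median of 0.119. Against matched cells 1 of 8 rose (Sfrp2) and none fell.

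The photoreceptor lineage factor Otx2 was higher in explant progenitors, and so were Crx, Prdm1 and Neurod1. Otx2, the homeobox factor that commits cells to the photoreceptor lineage, was at 53.7, 86.4 and 116 CPM in the lowest, median and highest explant and at 14.5 to 30.1 CPM in retinas, a log2 fold change of 2.08 (SE 0.16) and of 1.80 against matched cells. Crx, its target in photoreceptor precursors, rose at 2.54 from a low level, at most 3.88 CPM in retinas and 10.3 to 31.4 CPM in explants. In the pooled counts of explants, Otx2 was at 90.7 CPM in progenitors and 39.7 CPM in amacrine cells, whose identity it does not mark, and Crx at 21.0 and 15.8 CPM. At least 1 UMI of Otx2 was seen in 21.5% of explant progenitors and 13.0% of explant amacrine cells, and of Crx in 7.75% and 6.49%, with medians of 4548 and 4742.5 UMIs per cell. For Otx2, Crx and the other photoreceptor markers in progenitors, background was not separated from expression. In all, 4 of 14 tested photoreceptor markers rose and 6 of 9 against matched cells, with Neurod1 and Prdm1 among them. Pooled Neurod1 was lower in explant progenitors (87.65 CPM) than in explant amacrine cells (131 CPM). It was abundant enough to be tested in amacrine cells of both groups, so their level is no measure of its background. The Notch ligand genes Dll1 (1.15) and Dll3 (1.85) and the proneural Neurog2 (1.80) rose against all P0 cells but did not pass against matched cells, at -0.17, 0.57 and 0.96. Gadd45a, a growth arrest gene, rose in both, at 1.80 and 1.11.

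Itm2a, which codes for a membrane protein, had the largest rise in progenitors under the rule for named genes, which asks for at least 100 CPM, after the lens crystallins described further on. It was at 359.8, 419.8 and 529 CPM in the lowest, median and highest explant and at 72.7 to 93.2 CPM in retinas (log2 fold change 2.38, SE 0.088, edgeR adjusted p = 8.14e-17), and at 2.35 against matched cells. The largest falls by the rule for named genes were those of Hist1h4d, Hist1h4h, Rpl29, Lockd, Rps28 and Oraov1. The 2 histone H4 genes and the ribosomal protein genes Rpl29 and Rps28 have near-identical copies elsewhere in the genome, so that their counts are uncertain, and Rpl29 itself ranged from 299 to 2286 CPM among the retinas. Lockd, a long noncoding RNA transcribed next to Cdkn1b, was at 40.2 to 66.5 CPM in explants and 263 to 376 CPM in retinas, without overlap.

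Most immediate early genes and 2 of 12 hedgehog genes fell in explant progenitors against all P0 cells, and few against matched cells. The hedgehog target Gli1, read at 0 to 10.4 CPM in explants and 27.9 to 42.1 CPM in retinas, fell at -2.54 and was too low to be tested against matched cells. The hedgehog binding protein gene Hhip fell at -1.10 (-0.99 and short of 2-fold without 0 nM explant 1) and was at 0.03 against matched cells, and the receptor gene Ptch1 did not reach 2-fold (-0.73). None of the 12 hedgehog genes rose, and of 10 tested against matched cells none passed at 2-fold. Immediate early genes, which respond to growth factors and to tissue dissociation, fell in 14 of 22 cases with a median of -1.06, but in 2 of 18 cases (Egr3 and Atf3) against matched cells with a median of -0.55. Jun, for one, was at 206 to 317 CPM in explants, 481 to 750.3 CPM in all P0 cells and 329 to 457 CPM in matched cells. Genes that answer to serum and TGF-beta did not rise in the medium with serum: 0 of 15 rose and 6 fell. Among the falls were the cytoskeletal genes Tpm1 (-1.02, or -0.92 and short of 2-fold without knockout retina 2) and Vcl (-1.30). The matricellular genes Cyr61 (-1.97) and Ctgf (-1.73) were others. Against matched cells 3 of 13 fell, which were Srf, Ctgf and Vcl, while Tpm1 (-0.91) and Cyr61 (-0.48) were short of 2-fold. Ctgf did not pass between the 0 nM explants and the wild-type and heterozygous retinas (-1.01, edgeR adjusted p = 0.0751).

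Cell cycle genes gave the sharpest dependence on the gene-number range. Against all P0 cells, 28 of 30 mitosis genes fell in explant progenitors, with a list median of -1.50. Against matched P0 cells none fell and 8 rose, with a median of 0.497. Top2a, the topoisomerase that untangles chromosomes before division, was at 167, 239 and 376 CPM in the lowest, median and highest explant. All P0 progenitors gave 962 to 1176 CPM and gene-number-matched P0 progenitors 102 to 112 CPM, so that explants lay below the first and above the second (log2 fold changes -2.06 and 1.22, both with edgeR adjusted p under 0.05). The same reversal was seen for the spindle gene Cenpf (-1.48 and 0.32), the ubiquitin-conjugating enzyme gene Ube2c (-2.03 and 0.80) and the Cdk-binding Cks2 (-1.09 and 0.34), none of which reached a 2-fold rise. In neurogenic progenitors 15 of 29 mitosis genes fell against all P0 cells and 18 of 26 rose against matched cells, with Top2a at -1.37 and 1.56. In photoreceptors 20 of 21 fell against all P0 cells, whereas only 7 could be tested against matched cells, of which 1 rose.

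Pcna, the sliding clamp of DNA replication, was lower in explants whichever P0 cells were used. In progenitors it was at 44.0 to 72.9 CPM in explants, 241 to 290.4 CPM in all P0 cells and 99.7 to 159 CPM in matched cells, with log2 fold changes of -2.22 and -1.34. It fell likewise in neurogenic progenitors (-2.07 and -1.44) and in photoreceptors (-3.18 and -1.28). The DNA replication list as a whole did not follow it, with 3 of 30 members lower in progenitors against all P0 cells and, against matched cells, 1 lower and 4 higher. P0 cells with more detected genes thus held most of the mitosis transcripts, and no difference in division between culture and eye can be read from either filter alone.

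**Figure D2:**
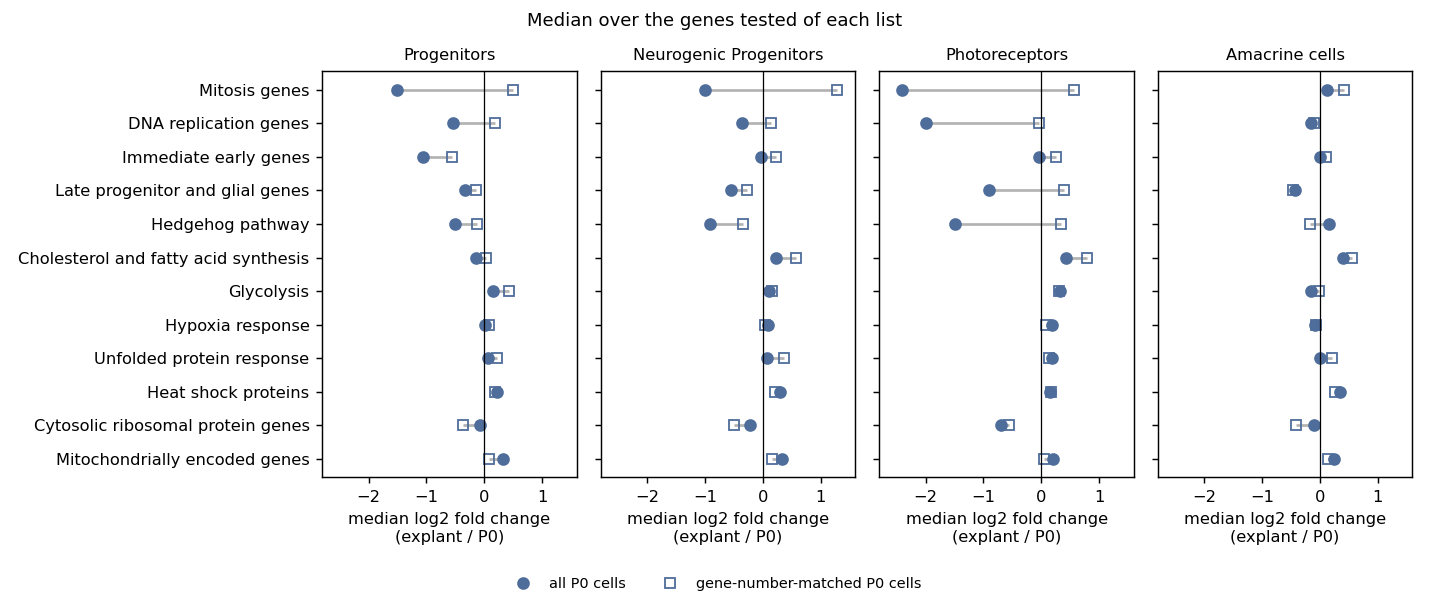
Median log2 fold change of explant over P0 for 12 gene lists in 4 cell types, against all P0 cells (filled circles) and against gene-number-matched P0 cells (open squares). The medians of mitosis genes moved from -1.50 to 0.497 in progenitors and from -1.003 to 1.28 in neurogenic progenitors, whereas those of the glycolysis, hypoxia, unfolded protein response and heat shock lists lay between -0.148 and 0.424 in all 4 types.

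Neurogenic progenitors of explants held more Atoh7 and Gadd45a and less of the late genes Crym, Nfib and Nfix. Of 6301 genes tested 105 (1.67%) rose and 251 (3.98%) fell, and against matched cells 157 of 5510 (2.85%) rose and 172 (3.12%) fell. The type had the fewest cells after RGCs, 682 in explants and 669 at P0.

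Atoh7 (mm10 chromosome 10, 63099785 to 63101280), the proneural factor that RGC formation requires, was at 1179, 1463 and 1884 CPM in the lowest, median and highest explant. Of the retinas, knockout retina 2 stood at 663 CPM and the others between 257 and 346 CPM. All explants were above all retinas, with a log2 fold change of 1.97 (SE 0.15, edgeR adjusted p = 1.55e-12), and of 2.03 against matched cells. Gadd45a (mm10 chromosome 6, 67035096 to 67037407) showed the largest rise, from 51.5 to 79.0 CPM in retinas to 292, 448 and 603 CPM in the lowest, median and highest explant, a log2 fold change of 2.68 (SE 0.14) and of 2.54 against matched cells. Its rise was 0.943 larger on the log2 scale than in progenitors and 1.17 larger than in photoreceptors (adjusted p = 0.00373 and 0.00311 in exact permutation tests of the difference, over 6 such comparisons that were chosen with the results known). The proneural Neurog2 (-0.71) did not reach 2-fold. In all, 2 of 14 neurogenic markers rose and 1 fell, which was Sstr2.

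Sstr2 was at 62.8, 116 and 175 CPM in the lowest, median and highest explant, overlapping the wild-type retina at 121 CPM. Its log2 fold change was -1.21 (SE 0.20) against all P0 cells and -0.76, short of 2-fold, against matched cells. With the doses and genotypes given equal weight it was -0.97, and between the 0 nM explants and the wild-type and heterozygous retinas it was -0.52 (edgeR adjusted p = 0.23). The retinas with the highest values were the knockout ones, and the genotype of the retinas and the culture of the explants cannot be told apart in it.

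Further rises in neurogenic progenitors were those of Fabp7, the brain fatty acid binding protein gene (2.11), of the POU factor gene Pou3f1 (1.86), of Itm2a (1.61) and of Gap43, an axon growth gene (1.87). Crx, Rom1 and Pdc, which photoreceptors use, rose in both comparisons. Crx was at 42.2, 124 and 158 CPM in the lowest, median and highest explant and 35.6 to 50.2 CPM in retinas (1.44). Of 9 photoreceptor markers tested 4 rose. At any size, 6 were higher and 2 lower with an edgeR adjusted p under 0.05. The sum of that list overlapped, at 1735 to 2644 CPM in explants and 1806 to 2194 CPM in retinas. Of RGC markers 5 of 6 tested rose, among them the axon guidance receptor gene Robo2 at 92.7 to 155 CPM against 37.4 to 59.5 CPM (1.33), and 2 of 4 (Gap43 and Robo2) rose against matched cells. Robo2 was higher still in explant photoreceptors, at 242 to 281 CPM. For the RGC and photoreceptor markers of neurogenic progenitors, background was not separated from expression.

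Falls in neurogenic progenitors were led by Hist1h4d, Rpl29, Crym, Rps28, Pcna and Mxra7. Crym was at 0, 22.4 and 62.0 CPM in the lowest, median and highest explant and at 166 to 213 CPM in retinas, a log2 fold change of -2.88 (SE 0.18, edgeR adjusted p = 7.46e-15). Late progenitor and glial genes fell in 7 of 18 cases and in 4 of 16 against matched cells, and none rose. Nfib was read at 0 to 82.2 CPM in explants, with no UMI in 5 nM explant 1, and at 117 to 205 CPM in retinas (-1.50), and Nfix fell at -1.78. Ptch1, whose transcription hedgehog signaling raises, fell both against all P0 cells (-1.13) and against matched cells (-1.01), and the hedgehog co-receptor gene Gas1 against all cells only (-1.06 and -0.55). Without heterozygous retina 2 neither reached 2-fold, at -0.97 and -0.93, and Gas1 was at -0.95 without 50 nM explant 2. Between the 0 nM explants and the wild-type and heterozygous retinas Ptch1 was at -1.12 with an edgeR adjusted p = 0.0685.

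**Figure D3:**
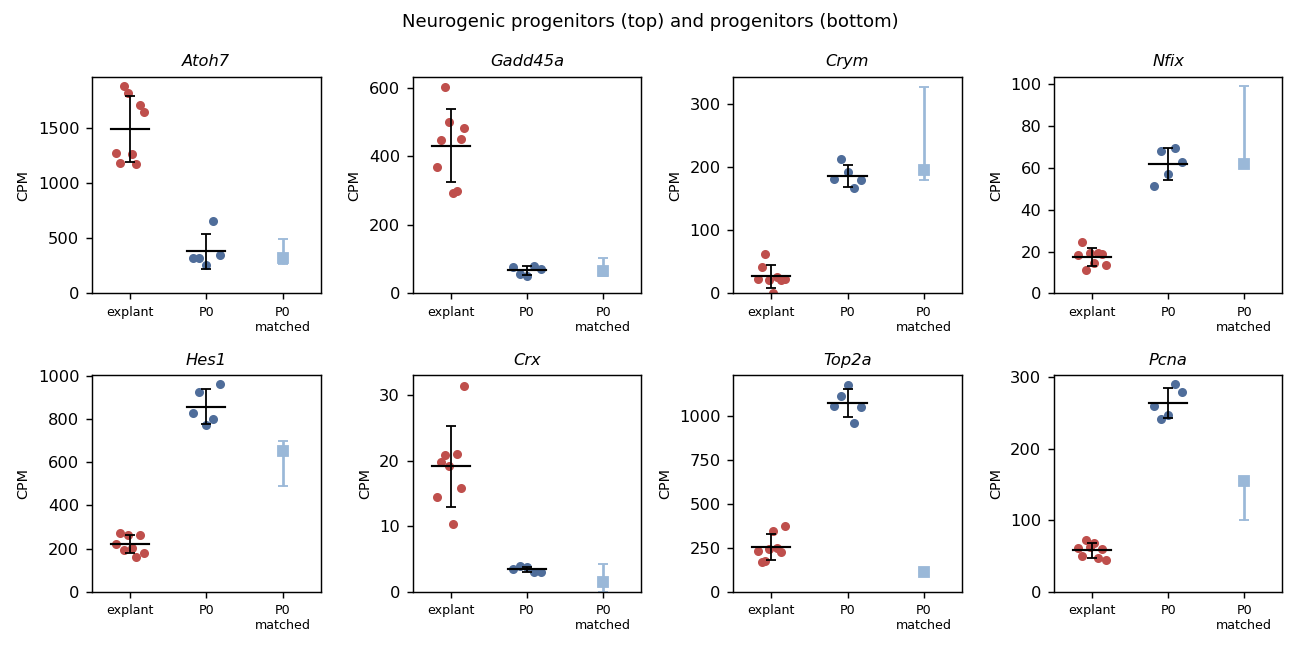
CPM of Atoh7, Gadd45a, Crym and Nfix in neurogenic progenitors (top) and of Hes1, Crx, Top2a and Pcna in progenitors (bottom). Points are the 8 explants (red) and the 5 P0 retinas with all cells (blue) with mean ± SD, and the pale square and bar give the median and range of the 5 retinas with gene-number-matched cells. Atoh7 and Gadd45a lay higher in every explant than in every retina, Top2a of matched cells at 102 to 112 CPM lay below the explants, and Hes1 and Pcna of matched cells stayed above them.

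Photoreceptors of explants held more of an MHC class I transcript and of several cholesterol synthesis genes, more of the cone transducin gene Gnat2, and less Rbp3, Gnb1 and Pde6b. Of 7879 genes tested 270 (3.43%) rose and 533 (6.76%) fell, and against matched cells 210 of 7357 (2.85%) rose and 246 (3.34%) fell. At this age these cells are precursors of rods and cones that have not grown outer segments.

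H2-D1 (mm10 chromosome 17, 35263094 to 35267497), a class I antigen-presenting molecule, had the largest rise under the rule for named genes. It was at 113, 224 and 246 CPM in the lowest, median and highest explant and at 10.3 to 22.7 CPM in retinas, a log2 fold change of 3.70 (SE 0.19, edgeR adjusted p = 6.24e-16) and of 3.72 against matched cells. H2-D1 rose less in amacrine cells (1.62) and in neurogenic progenitors (1.38), and the difference of photoreceptors from each, 1.98 and 2.24, passed an exact permutation test (adjusted p = 0.00233 in both). These were among the 6 such comparisons that were chosen with the results known. Class I genes share sequence with each other and differ between mouse strains, and the 2 groups differ in strain, so the counts of H2-D1 are uncertain. H2-K1 also rose, from a low level (1.71 to 10.1 CPM in retinas and 9.32 to 22.4 CPM in explants), but between the 0 nM explants and the wild-type and heterozygous retinas it did not pass (1.24, edgeR adjusted p = 0.102). Only 3 of the 22 genes of the interferon and class I list were abundant enough to test.

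Further rises were those of Pnp, a purine salvage enzyme gene at 188, 267 and 323 CPM in the lowest, median and highest explant and 14.8 to 54.6 CPM in retinas (3.28), Crtac1 (2.95), the linker histone gene Hist1h1c (2.36), Pcp2 (2.22) and Abhd14b (2.11). None of these overlapped between the groups, and each rose against matched cells as well.

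Cholesterol and fatty acid synthesis genes rose in 8 of 28 cases and fell in none, with a median of 0.425 beside 0.0099 for all genes. Against matched cells 9 of 27 rose and the median was 0.792. Summed over the list, explants held 2340 to 2775 CPM, all P0 cells 1219 to 1572 CPM and matched P0 cells 1073 to 1305 CPM, with no overlap. Scd2, a desaturase that makes unsaturated fatty acids, was the most abundant, at 392, 478 and 559 CPM in the lowest, median and highest explant and 181 to 228 CPM in retinas (1.25, SE 0.078, edgeR adjusted p = 7.93e-14). Cyp51 (1.27) and Fdps (1.12), enzymes of the sterol pathway, and Insig1 (1.04), which senses sterols, rose as well in both comparisons. The sterol synthesis enzyme genes Hmgcs1 (0.82) and Sqle (0.73) did not reach 2-fold. Medians of the same list were 0.407 in amacrine cells, 0.234 in neurogenic progenitors and -0.138 in progenitors. The medium held serum, and the blood supply of the eye was absent, but lipids were not measured.

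Photoreceptor genes themselves moved both ways. Against all P0 cells 4 of 25 rose and 3 fell, and against matched cells 1 rose and 4 fell. Gnat2, the cone transducin alpha subunit, was at 162, 218 and 279.7 CPM in the lowest, median and highest explant and at 66.7 to 118 CPM in retinas (1.32, SE 0.12), and rose against matched cells as well (1.03). Sag, or arrestin, Prph2, an outer segment disc protein gene, and Aipl1, a chaperone for phosphodiesterase, rose against all P0 cells only (1.13, 1.02 and 1.17). Rbp3, the retinoid-binding protein between the photoreceptors and the pigment epithelium, was at 119.9, 137 and 188 CPM in the lowest, median and highest explant and at 261 to 330.4 CPM in retinas (-1.03, SE 0.087). It, Gnb1, a G protein beta subunit gene (-1.07), and the rod phosphodiesterase gene Pde6b (-1.66) fell in both comparisons. Nrl, the factor that makes rods, overlapped between explants (228 to 336 CPM) and all P0 cells (303 to 481 CPM, log2 fold change -0.41) and fell against matched cells (-1.03). Whether changes near 2-fold reached that size depended on single samples. Rbp3 was at -0.97, -0.99 and -0.98 without 0 nM explant 1, 5 nM explant 2 and knockout retina 2, and Gnb1 at -0.96 without heterozygous retina 1. Prph2 was at 0.99 without 500 nM explant 1 or wild-type retina 1 and 0.998 without heterozygous retina 1. Each of these still had an edgeR adjusted p under 0.05. The early factors Crx (0.71) and Otx2 (0.74) and the cone gene Thrb (0.63) did not reach 2-fold.

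Several progenitor transcripts were higher in P0 photoreceptors than in those of explants when all P0 cells were used. The cyclin gene Ccnd1 was at 82.1, 99.5 and 295 CPM in the lowest, median and highest explant, at 841 to 1465 CPM in all P0 photoreceptors and at 62.2 to 87.2 CPM in gene-number-matched ones. Ccnd1 was thus far lower in the matched cells, and its log2 fold change went from -3.16 to 0.84. Hes5 (-1.35 to 1.34) and Lhx2 (-1.12 to 0.32) turned in the same way. Of 11 progenitor markers tested in photoreceptors 6 fell against all P0 cells, while 3 of 8 rose and none fell against matched ones. The falls of Mdk, a growth factor gene (-3.10 and -2.14), of the spliceosome gene Snrpg (-2.55 and -2.11) and of the ribosomal protein genes Rpl29, Rps28 and Rpl38 were found with either filter.

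**Figure D4:**
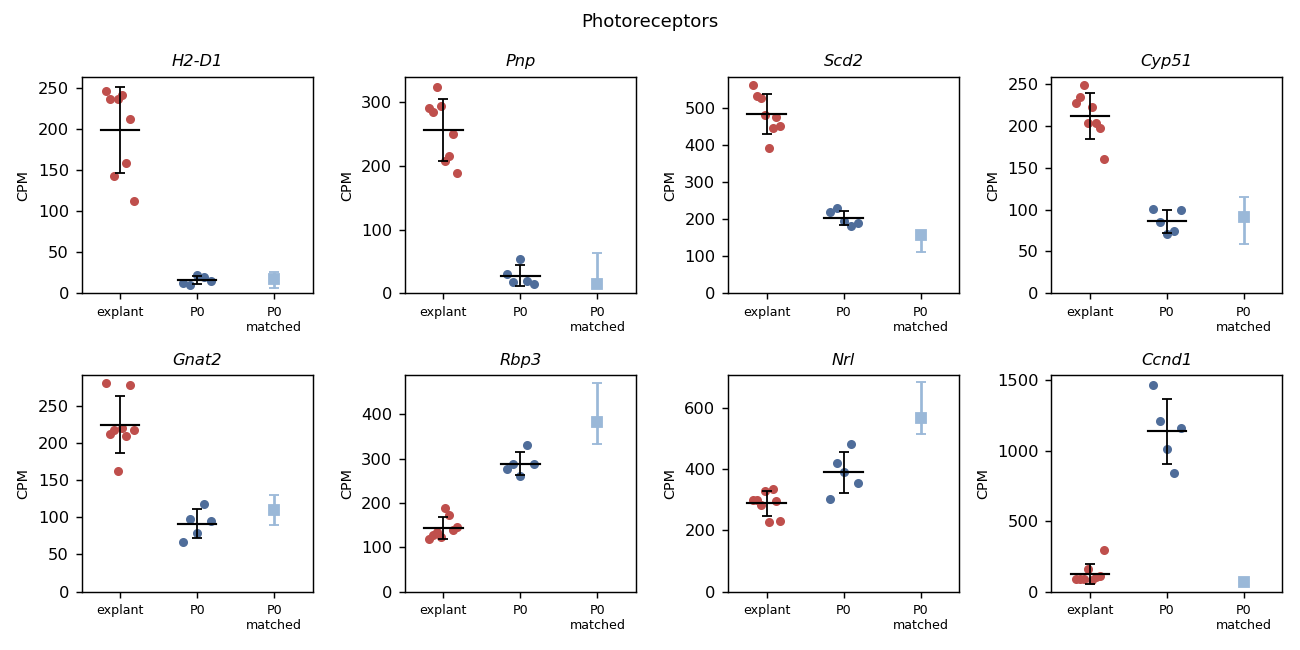
CPM of 8 genes in photoreceptors, with explants in red, P0 retinas in blue (points with mean ± SD) and the median and range of the 5 retinas with gene-number-matched cells as a pale square and bar. H2-D1, Pnp, Scd2, Cyp51 and Gnat2 were higher in every explant than in every retina with either filter and Rbp3 lower, Nrl overlapped only with all P0 cells, and Ccnd1 at 841 to 1465 CPM in all P0 cells fell to 62.2 to 87.2 CPM in matched cells.

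Against all P0 cells, amacrine cells had the fewest rises of the 5 types. Of 8088 genes tested 67 (0.828%) rose and 270 (3.34%) fell, and against matched cells 127 of 6179 (2.06%) rose and 232 (3.75%) fell. Only Hist1h1e, a linker histone gene (1.86), and Tshz1, a zinc finger factor gene (1.13), met the rule for named rises. Of genes that define the type, the AP-2 factor genes Tfap2a (-0.70) and Tfap2b (0.05) and Gad1 (0.04), which makes GABA, did not reach 2-fold against all P0 cells, although against matched cells Gad1 rose (1.65) and Ptf1a, a factor of newborn amacrine and horizontal cells, fell (-1.29).

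Falls in amacrine cells included those of Lmo4, Meg3, C1ql1 and Cplx2. Lmo4 (mm10 chromosome 3, 144188530 to 144205255), a LIM-domain cofactor gene, was at 94.7, 103 and 119 CPM in the lowest, median and highest explant and at 345 to 609.9 CPM in retinas (-2.32, SE 0.10, edgeR adjusted p = 3.00e-17), and at -2.46 against matched cells. Knockout retina 2 was the lowest of the retinas and still stood well above every explant. The imprinted noncoding RNA Meg3 was at 102, 154 and 239 CPM in the lowest, median and highest explant and 561 to 908 CPM in retinas (-2.18). The synaptic genes C1ql1 (-2.27) and Cplx2 (-2.02) fell with them, as did Nfib (-1.65) and Neurod1 (-1.16), all in both comparisons. Of amacrine markers 2 of 17 fell and none rose. In the cholesterol list 2 of 27 rose (Mvd and Nsdhl) and 6 of 23 against matched cells, and its sum was 2317 to 2671 CPM in explants and 1603 to 1768 CPM in retinas.

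The cells named RGCs differed most. Of 3623 genes tested 504 (13.9%) rose and 395 (10.9%) fell, in 7 explants and 5 retinas, since 0 nM explant 2 had too few of these cells and was left out of the fit. No P0 RGC lay inside the gene-number range, so there is no matched comparison, and explant samples entered with 10 to 61 cells. The label was checked per cell: 128 of the 200 explant cells (64%) held at least 2 UMIs of RGC markers and under 2 of amacrine markers, 53 (26.5%) the reverse, 8 (4%) both and 11 (5.5%) neither. Of the 85 P0 cells 75 held RGC markers only, 10 held both, and none held amacrine markers only. P0 RGCs were also deeper, which raises the number of markers seen in a cell. Mitochondrial transcripts made up a median of 20.6% of the UMIs of an explant RGC and 4.42% of a P0 RGC, and 153 of the 200 explant RGCs (76.5%) but none of the 85 P0 RGCs reached 10%. In the other explant types 2.84% to 7.51% of cells did.

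Most genes listed as RGC markers were lower in the explant cells named RGCs, and a few were higher. Sncg (mm10 chromosome 14, 34370274 to 34374669), gamma-synuclein, was at 125, 441 and 943 CPM in the lowest, median and highest explant and at 3366 to 4058 CPM in retinas (-3.18, SE 0.22, edgeR adjusted p = 9.41e-14). The neurofilament genes Nefl (-2.97) and Nefm (-1.35) and Gap43 (-1.17), all of the axon, fell with it. Thy1, Slc17a6 and Nrn1 fell too. Of the transcription factor genes on the list, Irx2 fell, Pou4f1 was at -0.68, short of 2-fold, and Nhlh2 and Isl1 rose. Isl1 went from 323 to 528 CPM in retinas to 743, 904 and 1322 CPM in the lowest, median and highest explant (1.21, SE 0.15). Isl1 was also abundant enough to be tested in progenitors, where it rose, and in amacrine cells, where it fell, both against all P0 cells. Of the explant cells named RGCs 26.5% held amacrine markers only, and Isl1 was not examined in them separately. Which cells carried the rise of Isl1 was not tested. Over the list, 8 of 21 RGC markers fell and 2 rose, with a median of -0.848 beside -0.006 for all genes. At any size, 15 were lower and 5 higher with an edgeR adjusted p under 0.05. The list summed to 9740 to 12940 CPM in explants and 19550 to 22920 CPM in retinas, without overlap.

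Amacrine and progenitor transcripts stood out in the same cells. Tfap2b was at 261, 509 and 763 CPM in the lowest, median and highest explant, with 271 UMIs of 658388, while 2290028 UMIs of P0 RGCs held none. Set against a floor of 3 counts over the retinas it was at least 314-fold higher, Neurog2 (162 UMIs against 0) at least 188-fold and Slc18a3, the acetylcholine carrier of starburst amacrine cells (50 UMIs against 0), at least 58.0-fold, by pooled counts and for counting error only. Sox2, at 181 to 509 CPM in explants and at most 7.93 CPM in retinas, Megf10, at 40.1 to 244 and at most 3.47 CPM, and C2cd4b, at 107 to 422 and at most 5.06 CPM, were also high. Sox2 and Megf10 are expressed by starburst amacrine cells. The deepest falls were those of neuronal genes, with Sncb, Hpca, Vsnl1, Fxyd7, Selenom and Resp18 at a median of 0 to 33.9 CPM in explants and all above 100 CPM in every retina.

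Without cells of 10% or more mitochondrial UMIs, an alternative chosen after seeing the data, 47 explant RGCs were left and 1 explant could enter the fit. In it Pou4f1 was at -1.26 and Nefm at -0.67, the latter with an edgeR adjusted p = 0.18. The share of RGCs was 0.930% ± 0.701 in explants and 1.54% ± 0.650 in retinas (exact permutation p = 0.147). The higher mean share of RGCs in explants thus rested on cells with many mitochondrial transcripts, and the part of such cells and of amacrine cells in the RGC values was not tested further.

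Short transcripts had a lower median change than longer ones in each cell type. Rps28, a ribosomal protein gene whose principal transcript has 387 nucleotides, was at 496, 563 and 623 CPM in the photoreceptors of the lowest, median and highest explant and at 3796 to 4619.8 CPM in those of retinas. Its log2 fold change was -2.91 in photoreceptors, -2.50 in progenitors, -2.57 in neurogenic progenitors, -2.51 in amacrine cells and -3.01 in RGCs. Of 82 cytosolic ribosomal protein genes 13 fell in progenitors, 15 in neurogenic progenitors, 24 in photoreceptors and 14 in amacrine cells, as did 31 of 81 in RGCs, and none rose. The 4 types that could be compared with matched cells then had 20, 22, 23 and 20 falls. The summed CPM of these genes was lower in explants in each type, and in photoreceptors it was 101300 to 120200 in explants and 172000 to 191600 in retinas.

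Length was also tabulated over all genes, but ribosomal protein genes were not taken out, so a relation apart from them was not tested. Among genes of at least 100 CPM, those with a transcript under 600 nucleotides had median log2 fold changes of -0.546 in progenitors, -0.484 in neurogenic progenitors, -0.749 in photoreceptors, -0.411 in amacrine cells and -1.09 in RGCs. For lengths of 600 nucleotides and over the medians stayed between -0.137 and 0.154, except in RGCs, where they climbed from -0.626 to 0.638. Mitochondrial transcripts did not follow length alone. Their summed CPM was higher in the explants of every type, at 57400 to 68470 against 42800 to 45960 in photoreceptors, yet mt-Nd3 (348 nucleotides, -1.12) and mt-Atp8 (204 nucleotides, -1.23), which code for small subunits of complex I and of ATP synthase, fell there. The complex I gene mt-Nd4l (297 nucleotides) was at -0.24 in photoreceptors, short of 2-fold, and in RGCs it rose (1.31), while mt-Nd3 (0.52) and mt-Atp8 (0.24) did not pass at 2-fold there. Both libraries used the same chemistry by the labels, and whether recovery of short molecules differed between them was not tested.

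**Figure D5:**
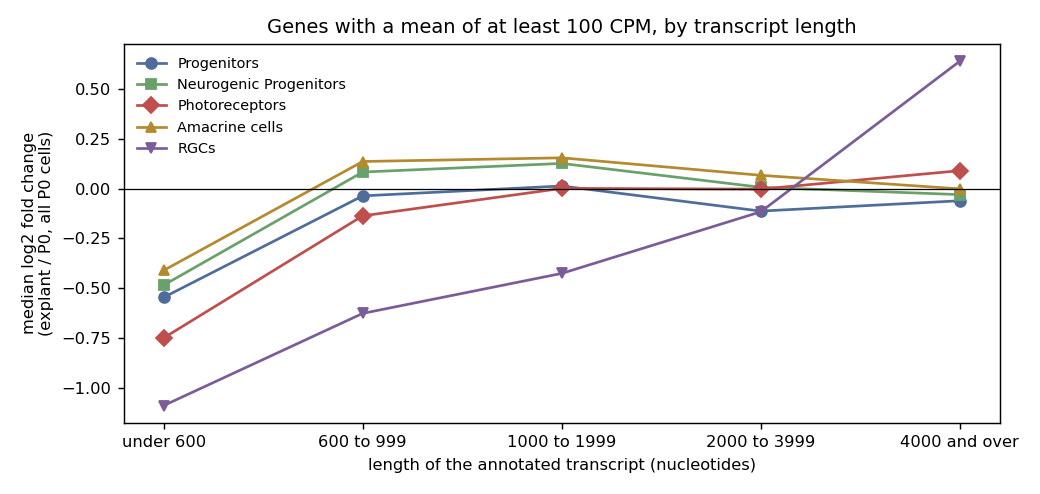
Median log2 fold change of explant over P0 (all P0 cells) by length of the annotated transcript, for genes of at least 100 CPM in 5 cell types, ribosomal protein genes included. Transcripts under 600 nucleotides lay at -0.411 to -1.09, lower than any other length class of the same type, and RGCs rose with length to 0.638.

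Lens crystallin transcripts were present at a low level throughout the explants. Of the explant cells of each type 41.5% to 43.8% held at least 1 crystallin UMI, and of the P0 cells 2.00% to 4.71%. Among explant progenitors 4 of 1691 cells held 94.5% of the crystallin UMIs, and 3 cells of 500 nM explant 2 alone held 16183. Those 3 cells set the values of the highest explant for Cryge, Cryba1 and Crybb1. Cryge was at 7.81, 25.02 and 2116 CPM in the lowest, median and highest explant and at most 0.193 CPM in retinas. Cryba1 was at most 1033 CPM in explants and 1.21 CPM in retinas, and Crybb1 at most 873 and 1.83 CPM. Without cells of 20 or more crystallin UMIs, Cryge was still at 7.85 to 34.5 CPM of the unscaled totals in explant progenitors and at most 0.179 in retinas, and at 29.8 to 55.2 in explant photoreceptors and 0 in those of retinas. The median explant then had 49.0 CPM of Cryge in photoreceptors and 23.1 CPM in progenitors. The share of cells with a crystallin UMI was thus alike in every explant type. The CPM of Cryge differed, but so did depth, with medians of 2642.5 UMIs in explant photoreceptors and 4548 in explant progenitors. Whether the difference in CPM goes beyond that in depth was not tested. Background was not separated from expression by those cells.

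Other markers were also seen at low levels outside their cell type. Pou4f1 was at 418 CPM in the explant cells named RGCs and at 5.94 to 11.5 CPM in each of the other 4 explant types, and at 685 and 0.548 to 1.03 CPM at P0. Tfap2b was at 1048 CPM in explant amacrine cells and at 41.8 to 56.8 CPM in progenitors, neurogenic progenitors and photoreceptors. Of 13 RGC markers tested in progenitors 9 rose (3 of 8 against matched cells). The whole list summed to 310 to 510 CPM in explant progenitors and 149 to 172 CPM in those of retinas. For these markers background was not separated from expression.

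Stress lists gave few calls in progenitors, where 2.89% of all genes tested rose and 5.95% fell. At those shares lists this short give few calls in any case. In progenitors none of 18 hypoxia genes, 16 unfolded protein response genes or 11 heat shock genes passed at 2-fold, of 18 glycolysis genes 1 fell, and of 19 p53 and apoptosis genes 1 rose and 1 fell. Heat shock genes were slightly but evenly higher: their sum in progenitors was 6602 to 7196 CPM in explants and 5171 to 5406 CPM in retinas, with a list median of 0.219, and in amacrine cells 6266 to 6510 CPM and 5152 to 5365 CPM. Heat shock sums in neurogenic progenitors were 6953 to 7593 CPM in explants and 5399 to 5553 CPM in retinas. Unfolded protein response genes also summed higher in explant progenitors, at 1969 to 2365 CPM against 1598 to 1817 CPM. They did so too in neurogenic progenitors (1460 to 1714 against 1377 to 1440 CPM) and photoreceptors (1531 to 1744 against 1306 to 1430 CPM). In RGCs they were at 1105 to 1457 CPM against 948.5 to 1072 CPM, and in amacrine cells they overlapped. In photoreceptors the heat shock sums overlapped, and in RGCs they were lower in explants, at 5191 to 6659 CPM against 6848 to 7584 CPM.

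Markers of other cells were summed by list. Red blood cell genes summed to at most 2.10 CPM in any cell type of an explant and 4.47 CPM in any of a retina. None of the 8 genes of that list was listed in both libraries, and genes a library does not list add nothing to its sum. These sums therefore do not show that blood transcripts were rare. Microglia genes reached 164 CPM in the progenitors of the highest retina and 317 CPM in the amacrine cells of the highest explant, where the medians of the groups were 7.44 and 4.87 CPM. Vascular cell genes summed to 271 to 321 CPM in explant progenitors and 229 to 258 CPM in those of retinas. The part of these cells in the differences above was not tested.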

How the data were processed

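Retinal cells were dissociated with papain, labelled with lipid-bound barcodes and run as 1 library of 10x 3' v3.0 chemistry per group. The authors deposited unnormalised UMI counts for each gene in each cell, with the sample and cell type of the cell. Per the submitters' processing notes these came from Cell Ranger 3.1.0 on mm10 and from Seurat 3. Samples were assigned by the authors from the barcodes, and no doublet caller was run here. The P14 retinas and the authors' normalised values were not used, as the comparison needs neither.

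Raw counts of the 17407 genes listed in both libraries were added up for each sample and cell type with at least 10 cells. Log2 fold changes of explant over P0 were fitted by edgeR 4.0.16 (quasi-likelihood F-test, TMM scaling, filterByExpr, no covariate) in R 4.3.3, with Benjamini-Hochberg adjustment over all genes tested. Calls needed an adjusted p under 0.05 and at least a 2-fold change. Shares of cell types were compared by two-sided exact permutation tests over samples, coded in Python 3.11.15 with numpy 2.4.6. The code was tested on simulated data. Depth was 1281682 to 10793649 UMIs per sample, and intervals of counts cover counting error only.

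Genes named were the 6 largest rises and falls per cell type among genes called the same way against all and matched P0 cells, with groups that did not overlap and a mean of at least 100 CPM in the higher group (Xist, Tsix, Y-linked and unnamed gene models left out). Called members of each list with the highest CPM (up to 4 per direction), list-defining genes and cell type markers were named as well. RGCs had no matched comparison. A few genes that the rule covers are not reported here. Any other gene was chosen after its values were seen. Members and gene lists were chosen with earlier results of these data known. Alternatives were DESeq2 1.42.0, its size factors, no filter on low counts, genes listed in either library, abundant genes left out, doses and genotypes as groups, thinned P0 sums, a minimum of 20 cells, other sets of samples or cells, and each sample left out. Coordinates are those of RefSeq on GRCm38.p6 (mm10), and transcript lengths those of the GENCODE principal transcript.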

Additional observations from a re-analysis of the deposited data

Results flagged for a closer look

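Of 225 groups of values checked for a sample far from the rest of its group, 24 held one, where chance gives about 1 in 20 groups. They are given with their values.

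In progenitors, 500 nM explant 2 stood apart for the lens crystallin genes Cryge (2116 CPM), Cryba1 (1033 CPM) and Crybb1 (873 CPM). Among retinas the highest values of the same genes were 0.193 CPM in wild-type retina 1, 1.21 CPM in knockout retina 2 and 1.83 CPM in heterozygous retina 1. The Wnt modulator gene Sfrp2 was highest in knockout retina 2 among the retinas and in 50 nM explant 1 among the explants, at 88.6 and 177 CPM. Knockout retina 2 also had the lowest Nfib, at 237 CPM.

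In neurogenic progenitors Atoh7 was at 662.7 CPM in knockout retina 2, above the other retinas. Hist1h4d was at 35.2 CPM in 5 nM explant 2, Nfib at 0 in 5 nM explant 1 and Robo2 highest among the retinas, at 59.5 CPM, in heterozygous retina 1.

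In photoreceptors the proliferation genes Pcna and Ccnd1 each had a high explant, 21.2 CPM in 50 nM explant 1 and 295 CPM in 500 nM explant 2, and Pcna was highest in heterozygous retina 1, at 154 CPM. The sterol synthesis gene Hmgcs1 was at 298 CPM in 5 nM explant 1. In amacrine cells Tshz1 was lowest in 5 nM explant 1, at 123 CPM, and among retinas the share of amacrine cells was lowest in heterozygous retina 1, at 14.7%.

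In RGCs, where samples held few cells, Sox2 was at 7.93 CPM in knockout retina 1, Sncb at 5.81 CPM and Resp18 at 74.8 CPM in 500 nM explants 2 and 1, Vsnl1 at 80.3 CPM in 50 nM explant 2 and Nefl at 3651 CPM in wild-type retina 1.

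The difference between explants and retinas was itself unequal between cell types for 3 genes, in exact permutation tests of the difference on log2(CPM + 1). The 6 comparisons tested were chosen with the results known. Nfib, also tested, did not pass between neurogenic progenitors and progenitors (-1.15, exact permutation p = 0.252). H2-D1 rose more in photoreceptors than in amacrine cells (by 1.98) and than in neurogenic progenitors (by 2.24). Gadd45a rose more in neurogenic progenitors than in progenitors (by 0.943) and photoreceptors (by 1.17). Rps28 fell further in photoreceptors than in progenitors, with a difference of -0.408.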

How the results depend on the processing

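Culture, library and strain cannot be told apart under any setting, and the agonist is left out only where the 0 nM explants are compared, RGC sums rest on 10 to 61 cells per explant, and the cause of the changes below was not tested. Against gene-number-matched P0 cells the genes changed went from 823 to 488 in progenitors and from 803 to 456 in photoreceptors, and the differences in share of cells became -4.95 points in progenitors, -3.52 in neurogenic progenitors, -7.99 in photoreceptors and 3.70 in RGCs. These genes changed sign there: in progenitors Cenpf (0.32), Cks2 (0.34), Dll1 (-0.17), Hhip (0.026), Top2a (1.22) and Ube2c (0.80), in neurogenic progenitors Top2a (1.56), in photoreceptors Ccnd1 (0.84), Hes5 (1.34) and Lhx2 (0.32), and in amacrine cells Ptf1a (-1.29). No filter on low counts gave 1860, 1115, 2114, 1124 and 2203 changed genes in progenitors, neurogenic progenitors, photoreceptors, amacrine cells and RGCs. The 0 nM explants against the wild-type and heterozygous retinas gave 1379 in photoreceptors, 519 in amacrine cells and 325 in RGCs, the last from 1 explant assumed to vary like the retinas. Differences in share there were -27.8 points for progenitors, 15.6 for photoreceptors and 12.3 for amacrine cells, with p = 0.1, the smallest that an exact permutation test of 2 against 3 allows. In RGCs thinned P0 sums gave 260 changed genes, and cells of under 10% mitochondrial UMIs (1 explant, added after seeing the data) 381. RGC splits into higher and lower were 504 and 395, or 439 and 533 with doses and genotypes as groups, which moved the median of all genes to -0.13. Leaving out 1 sample in turn gave 748 to 832 changed genes in progenitors, 320 to 393 in neurogenic progenitors, 755 to 903 in photoreceptors, 324 to 407 in amacrine cells and 836 to 1005 in RGCs, and differences in share of -20.9 to -17.5, 0.151 to 0.736, 9.16 to 11.9, 5.09 to 7.21 and 1.57 to 2.55 points. With thinned P0 sums Rbp3 (-0.96), Prph2 (0.92) and Insig1 (1.0) of photoreceptors and Gap43 of RGCs (-0.88) were short of 2-fold. Between the 0 nM explants and the wild-type and heterozygous retinas Crx (0.99) and Gas1 (-0.98) of neurogenic progenitors were short of 2-fold, and in RGCs Hpca, Resp18, Selenom, Sncb and Vsnl1 did not pass (edgeR adjusted p = 0.0522 to 0.231). Isl1 of RGCs was at 0.86 and Pou4f1 at -1.02 with no filter on low counts. No paired analysis was possible because explant and retina numbers are not tied to a shared litter, animal or batch by the labels, and the same number recurs within each group.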
